A study of Rattus norvegicus with 33 samples.

Results

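Ccl19, Ccl21, Cxcl13, Ccr7, Cxcr5 and Ltb are 6 genes of the signalling system that builds and organises lymph nodes. They were followed across 6 stages of rat mammary gland development and in single arrays. Each was found in the platform annotation by its symbol, through a probe set that lists no other symbol, and each of the 6 had 1 such probe set. They are 6 of 18166 annotated symbols, and all 6 were among the 10986 genes that passed the filter on dim genes. That filter kept a gene whose log2 value exceeded 7.645, the median over probe sets with 1 symbol, in at least 3 arrays. Ccl21 exceeded this floor in all 33 arrays and Cxcl13 in 32. Ltb exceeded it in 20 arrays, Ccr7 in 18, Ccl19 in 16 and Cxcr5 in 11, so that many values of those 4 genes are dim and ratios that involve them are less exact.

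The RNA came from whole mammary glands of female Sprague-Dawley rats, an outbred strain. They were vehicle controls of a study on environmental chemicals and received olive oil by gavage. Of each animal the fifth caudal glands, left and right, were taken at postnatal day 21 (pre-pubertal, n = 10, before weaning, which was at day 28), day 42 (peri-pubertal, n = 5) and day 63 (pubertal, n = 5). Lactating glands were taken at lactation day 28, postnatal day 146 (n = 3), and glands of parous and of age-matched nulliparous rats at day 181 (n = 5 each). All animals of a stage were killed on 1 day, without staging of the estrous cycle. The series record gives 10 animals at day 21, whereas the sample notes give 5 per stage. Each array was counted as 1 animal, and if 2 arrays shared one, the errors given here are too small. The labels name 3 batches without saying what a batch was. Batch 1 held 6, 3 and 3 arrays of days 21, 42 and 63 and 3 each of the parous and nulliparous groups. Batch 2 held 4, 2 and 2 arrays of the 3 young stages and all 3 lactation arrays. Batch 3 held 2 parous and 2 nulliparous arrays, the only ones extracted with the Zymo kit instead of the Promega kit. Arrays are numbered within a stage by name only.

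CCL19 and CCL21 are chemokines that draw T cells and mature dendritic cells carrying the receptor CCR7 into the T cell zone of a lymph node. CCL21 is also made by lymphatic vessels and guides dendritic cells out of tissue. CXCL13 draws B cells carrying CXCR5 into follicles. Lymphotoxin beta, the product of Ltb, forms a membrane complex with lymphotoxin alpha on lymphocytes and signals through the lymphotoxin beta receptor on stromal cells, where in mice the NF-kappaB pathway raises these 3 chemokines. Mammary glands contain lymphatic vessels and lie close to lymph nodes. In whole tissue, fewer cells of a type and less RNA per cell cannot be told apart.

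Promoters are shown for reference, because in mice the 3 chemokine genes are known as NF-kappaB targets and Ltb as an activator of that pathway. RefSeq promoter sequences of build GRCr8, covering 250 bases before each gene's start, were found for 4 of the 6 genes. The sequences are written in the direction of the gene, which lies on the minus strand in all 4 cases, at chr5:61761165-61761414 (Ccl19), chr5:61777516-61777765 (Ccl21), chr14:13917921-13918170 (Cxcl13) and chr20:3634055-3634304 (Ltb). Capitals mark matches on either strand to GGGNNNNNCC, a loose form of the NF-kappaB motif, and to TATAAA.
Ccl19: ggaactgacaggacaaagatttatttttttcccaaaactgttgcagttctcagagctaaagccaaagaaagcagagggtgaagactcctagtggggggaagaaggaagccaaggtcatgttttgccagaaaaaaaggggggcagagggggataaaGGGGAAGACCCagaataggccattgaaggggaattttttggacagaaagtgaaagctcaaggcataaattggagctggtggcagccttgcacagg
Ccl21: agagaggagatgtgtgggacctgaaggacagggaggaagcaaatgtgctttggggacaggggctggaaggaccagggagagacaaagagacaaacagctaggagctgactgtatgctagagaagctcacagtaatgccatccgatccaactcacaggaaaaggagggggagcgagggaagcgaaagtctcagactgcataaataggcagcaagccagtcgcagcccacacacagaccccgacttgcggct
Cxcl13: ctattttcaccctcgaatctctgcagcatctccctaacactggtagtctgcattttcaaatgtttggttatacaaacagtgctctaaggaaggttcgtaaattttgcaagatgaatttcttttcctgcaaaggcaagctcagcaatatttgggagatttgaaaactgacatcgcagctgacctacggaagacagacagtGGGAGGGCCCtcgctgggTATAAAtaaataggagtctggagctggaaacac
Ltb: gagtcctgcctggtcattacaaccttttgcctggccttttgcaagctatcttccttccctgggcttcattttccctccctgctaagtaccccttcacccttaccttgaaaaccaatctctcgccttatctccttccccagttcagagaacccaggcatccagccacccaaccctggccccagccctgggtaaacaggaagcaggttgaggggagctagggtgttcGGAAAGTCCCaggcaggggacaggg
The capitals in Ccl19 cover a pair of overlapping NF-kappaB matches that begin 95 and 94 bases before the start. Cxcl13 has an NF-kappaB match 51 bases and TATAAA 33 bases before the start, and Ltb has an NF-kappaB match 25 bases before it, read on the opposite strand. The Ccl21 window holds neither motif. The loose motif is common, standing in 43.4% of 27457 RefSeq promoter windows of the same length, and TATAAA stands in 13.1%. A match is a match of letters and not a site shown to be bound. In the same annotation Ccl19 and Ccl21 are neighbours on chromosome 5 with LOC689481 between them, and Ltb stands next to Tnf, with Lta beyond it, on chromosome 20. In mice Ccl21 exists in near-identical copies, and whether the rat probe set reads more than 1 copy was not tested.

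Luminal epithelium and white adipocyte genes were followed in the arrays of every stage, and luminal genes were dim in part of the day 21 arrays. In day 21 arrays 2, 9 and 10 the luminal mean (6.57, 7.38 and 7.59) lay under the floor of 7.645. The mean over 17 luminal epithelium genes was 6.57 to 9.31 at day 21 and 9.13 to 10.57 in all other arrays, and the mean over 12 white adipocyte genes was 9.72 to 11.89 throughout. Batch moved many genes: 56.6% of the tested genes differed between batch 2 and batch 1 and 77.4% between batch 3 and batch 1, so the fits carry a batch term. In 5 arrays the mean over 11 skeletal muscle genes exceeded 9 (day 21 array 10, day 42 arrays 1 and 4, lactation array 3 and nulliparous array 5, at 9.28 to 10.49), against 6.55 to 8.39 elsewhere. Counts without these 5 arrays, a choice made after seeing the data, are given where they differ.

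All 6 genes differed between stages by the F test of the limma fit, batch included, with adjusted p of 0.000144 for Cxcl13, 0.000521 for Ccr7, 0.00212 for Ccl19, 0.00478 for Cxcr5, 0.0118 for Ccl21 and 0.0137 for Ltb. That test called 65.9% of all tested genes, so being called is not particular to these 6. Without the 5 arrays high in muscle genes, 4 of the 6 were called (adjusted p = 0.126 for Ccl21 and 0.111 for Ltb).

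**Figure D1:**
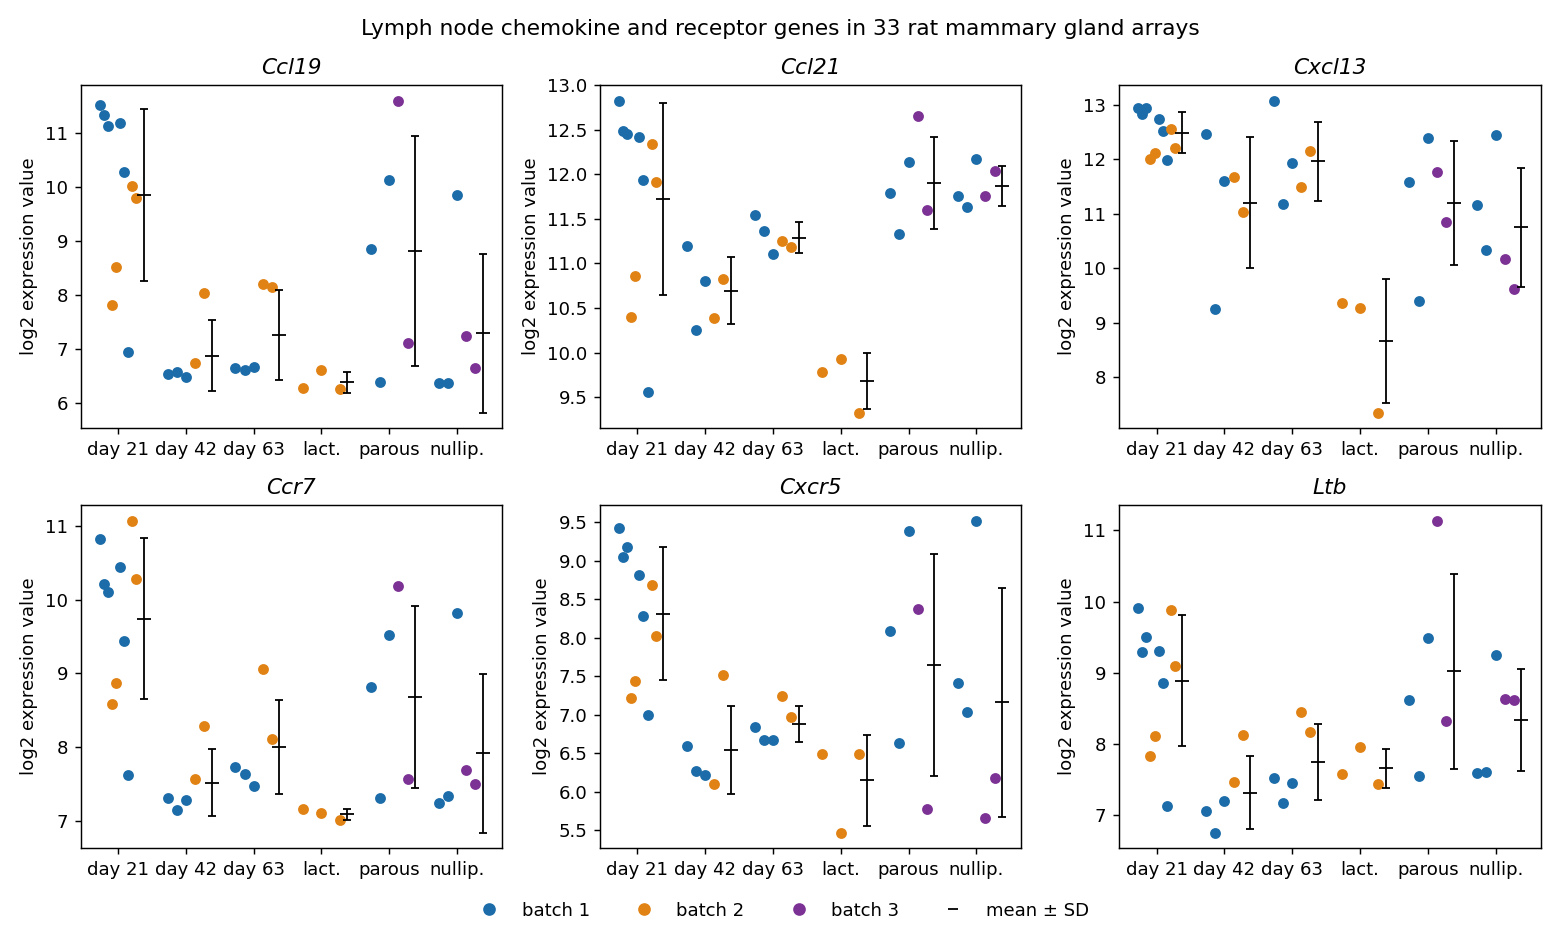
Deposited log2 value of each gene (y axis) in every array, by stage (x axis: days 21, 42 and 63, lactation, parous, nulliparous); points are arrays coloured by batch, and the black mark is the stage mean with SD. Ccl19, Ccr7, Cxcr5 and Ltb had their widest spreads at day 21 and in the parous and nulliparous glands, and every gene except Ltb had its lowest stage mean in the 3 lactating glands.

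Ccl19, a ligand of CCR7, ran from dim to bright, with some arrays in between. At day 21 the lowest, median and highest of 10 arrays were 6.95, 10.16 and 11.52. The 5 day 42 arrays stood at 6.53, 6.57, 6.48, 6.74 and 8.03, and the 5 day 63 arrays at 6.65, 6.61, 6.66, 8.21 and 8.15. In lactation the values were 6.27, 6.60 and 6.25, all below the floor. Parous glands were scattered, at 8.85, 6.39, 10.12, 11.60 and 7.11, and nulliparous glands stood at 6.36, 6.37, 9.85, 7.23 and 6.64. Parous array 4 was the brightest of all 33 arrays, so that a 37.2-fold range lay within 5 parous animals and a 23.8-fold range within the 10 day 21 animals. After removal of stage and batch, the SD of Ccl19 was 1.48, the sixth highest of 10986 genes, against a median of 0.187. By stage mean the order was day 21 (9.85 ± 1.60, SD, n = 10), parous (8.82 ± 2.14, n = 5), nulliparous (7.29 ± 1.47, n = 5), day 63 (7.26 ± 0.84, n = 5), day 42 (6.87 ± 0.66, n = 5) and lactation (6.37 ± 0.19, n = 3). No neighbours in that order passed limma's test, which includes the batch term (adjusted p between 0.377 and 0.981). Stage orders given here use the deposited values, without the batch term. With batch fitted, at the level of batch 1, day 63 (7.29) stood above nulliparous (7.23) for Ccl19.

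Ccl21, the other CCR7 ligand, was bright everywhere, at a lowest of 9.33 in lactation array 3. At day 21 its lowest, median and highest values were 9.56, 12.13 and 12.83. Day 42 arrays stood at 11.19, 10.26, 10.80, 10.38 and 10.83, and day 63 arrays at 11.54, 11.37, 11.10, 11.26 and 11.18. Lactating glands were at 9.78, 9.93 and 9.33, below every array of the other stages except day 21 array 8. Parous glands (11.79, 11.33, 12.13, 12.66 and 11.59) and nulliparous glands (11.75, 11.63, 12.17, 11.76 and 12.03) lay close together. The stage order was parous (11.90 ± 0.51, SD, n = 5), nulliparous (11.87 ± 0.22, n = 5), day 21 (11.72 ± 1.08, n = 10), day 63 (11.29 ± 0.17, n = 5), day 42 (10.69 ± 0.38, n = 5) and lactation (9.68 ± 0.31, n = 3). No neighbours in that order passed the test (adjusted p between 0.206 and 0.992). With batch fitted, day 21 (11.86) stood above parous (11.82) and nulliparous (11.79), and the other stages kept their order. Nulliparous glands with Ccl19 near the bottom of its range kept Ccl21 high: nulliparous arrays 1 and 2 had 6.36 and 6.37 for Ccl19 with 11.75 and 11.63 for Ccl21. In day 21 array 8, by contrast, both were low, at 6.95 for Ccl19 and 9.56 for Ccl21.

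Cxcl13, the ligand of CXCR5, was steady at day 21 and variable later. The lowest, median and highest of the 10 day 21 arrays were 11.99, 12.53 and 12.94, a 1.94-fold range. Day 42 arrays stood at 12.46, 9.25, 11.60, 11.68 and 11.03, with array 2 far below the others, and day 63 arrays at 13.07, 11.18, 11.93, 11.49 and 12.14. Lactating glands had 9.37, 9.28 and 7.35, the last being the lowest of all 33 arrays. Parous glands had 11.59, 9.40, 12.38, 11.76 and 10.85, and nulliparous glands 11.17, 10.33, 12.44, 10.17 and 9.62. The order by mean was day 21 (12.48 ± 0.38, SD, n = 10), day 63 (11.96 ± 0.73, n = 5), day 42 (11.20 ± 1.21, n = 5), parous (11.20 ± 1.14, n = 5), nulliparous (10.75 ± 1.10, n = 5) and lactation (8.67 ± 1.14, n = 3). With batch fitted, parous (11.44) came before day 42 (11.29). In either order only lactation differed from its neighbour, the nulliparous group being 2.11 ± 0.77 (SE) above lactation (adjusted p = 0.0327). That pair of stages differed at 34.9% of all tested genes.

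Ccr7, the receptor for both CCL19 and CCL21, had a lowest, median and highest value of 7.62, 10.16 and 11.07 at day 21. Day 42 arrays stood at 7.31, 7.15, 7.28, 7.56 and 8.28, day 63 arrays at 7.72, 7.63, 7.47, 9.06 and 8.11, and lactating glands at 7.15, 7.11 and 7.01. Parous glands had 8.81, 7.31, 9.52, 10.19 and 7.57, and nulliparous glands 7.24, 7.34, 9.81, 7.69 and 7.49. The arrays high for Ccr7 after day 21 were those high for Ccl19, namely parous arrays 1, 3 and 4, nulliparous array 3, day 63 arrays 4 and 5 and day 42 array 5. Among the 3 lactating glands Ccr7 varied little (7.09 ± 0.07, SD, n = 3), against 9.74 ± 1.10 (n = 10) at day 21. No neighbours in the order of stage means (day 21, parous, day 63, nulliparous, day 42, lactation) passed the test (adjusted p between 0.284 and 0.954). With batch fitted, nulliparous (7.96) came before day 63 (7.85).

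Cxcr5, the follicle-homing receptor of B cells and follicular helper T cells, exceeded the floor in the fewest arrays of the 6. Its lowest, median and highest values at day 21 were 6.999, 8.48 and 9.43. Day 42 arrays (6.60, 6.26, 6.22, 6.10 and 7.51), day 63 arrays (6.83, 6.67, 6.67, 7.24 and 6.96) and lactating glands (6.48, 5.47 and 6.49) were all below the floor. Parous glands had 8.09, 6.63, 9.39, 8.37 and 5.77, and nulliparous glands 7.41, 7.03, 9.52, 5.66 and 6.17. Nulliparous array 3 held the highest Cxcr5 value of all 33 arrays. Cxcr5 was the only 1 of the 6 with a batch term past the threshold. Batch 3 was 1.52 ± 0.55 (SE) below batch 1 (adjusted p = 0.0134), and batch 3 holds only parous and nulliparous arrays. That term was called for 77.4% of all tested genes.

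Ltb, the lymphotoxin beta subunit, had a lowest, median and highest value of 7.12, 9.19 and 9.90 at day 21. Day 42 arrays stood at 7.05, 6.75, 7.19, 7.46 and 8.12, day 63 arrays at 7.52, 7.16, 7.45, 8.45 and 8.17, and lactating glands at 7.58, 7.96 and 7.43. Parous glands had 8.61, 7.54, 9.49, 11.14 and 8.32, and nulliparous glands 7.59, 7.60, 9.25, 8.62 and 8.62. Parous array 4 was again the highest of all 33, 12.1-fold above the lowest parous array. Unlike the other 5 genes, Ltb had its lowest stage mean at day 42 (7.32 ± 0.52, SD, n = 5) and not in lactation (7.66 ± 0.27, n = 3), a pair that was not called (lactation minus day 42, 0.16 ± 0.61, SE, adjusted p = 0.861). Its partner Lta stayed under the floor in most arrays and was not tested; its mean was 6.97 ± 0.65 at day 21 (SD, n = 10) and between 6.01 and 6.33 in the other stages. The receptor gene Ltbr was far steadier than Ltb, with stage means between 9.34 at day 21 and 9.81 in lactation.

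The comparison of day 42 with day 21 covers the onset of puberty and the time around weaning. All 6 genes fell. Of all tested genes 15.2% fell and 32.3% were called in either direction. Ccl19 fell by 2.98 ± 0.76 (SE; 7.90-fold, adjusted p = 0.00323) and Ccr7 fell by 2.23 ± 0.50 (4.68-fold, adjusted p = 0.00101). Cxcr5 fell by 1.77 ± 0.47 (3.42-fold, adjusted p = 0.00426), and Ltb by 1.57 ± 0.43 (2.98-fold, adjusted p = 0.00584). Cxcl13 fell by 1.28 ± 0.47 (2.42-fold, adjusted p = 0.0362) and Ccl21 by 1.03 ± 0.35 (2.04-fold, adjusted p = 0.0265). The arrays of both stages overlapped for every one of the 6 through day 21 array 8, and for 5 of them also through array 4. Day 21 array 5 also lay below the highest day 42 array for Ccl21, Cxcl13, Cxcr5 and Ltb, and array 10 did so for Cxcl13. Of all tested genes 5.01% did not overlap. The median over the 6 genes was -1.67, and the median log2 difference over all tested genes was -9.625e-05. Within batch 1 (3 arrays against 6) Ccl19 fell by 3.87, Ccr7 by 2.53, Cxcr5 by 2.27 and Ltb fell by 1.998 (adjusted p between 0.0135 and 0.0168), and Ccl21 and Cxcl13 were not called (adjusted p = 0.109 and 0.121). Within batch 2 (2 arrays against 4) all 6 differences were negative, from -0.77 for Ccl21 to -1.78 for Ccr7, and none was called (adjusted p between 0.104 and 0.353). The fits of batch 1 and batch 2 called 2457 and 643 of 10986 tested genes. The fall of Cxcl13 rested on day 42 array 2, without which it was -0.74 (adjusted p = 0.219), and 3 of the 6 genes, Ccl19, Cxcl13 and Ccr7, were called without the 5 arrays high in muscle genes. The call of Cxcl13 was also lost without day 21 array 1, 2, 3 or 9 or day 42 array 5 (adjusted p between 0.0504 and 0.067), and that of Ccl21 without day 42 array 2, 3 or 4 (between 0.052 and 0.0882). With no batch term 4 of the 6 were called (adjusted p = 0.0567 for Ccl21 and 0.0733 for Cxcl13), and in a fit of only these 2 groups 5 were called (adjusted p = 0.102 for Ccl21).

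**Figure D2:**
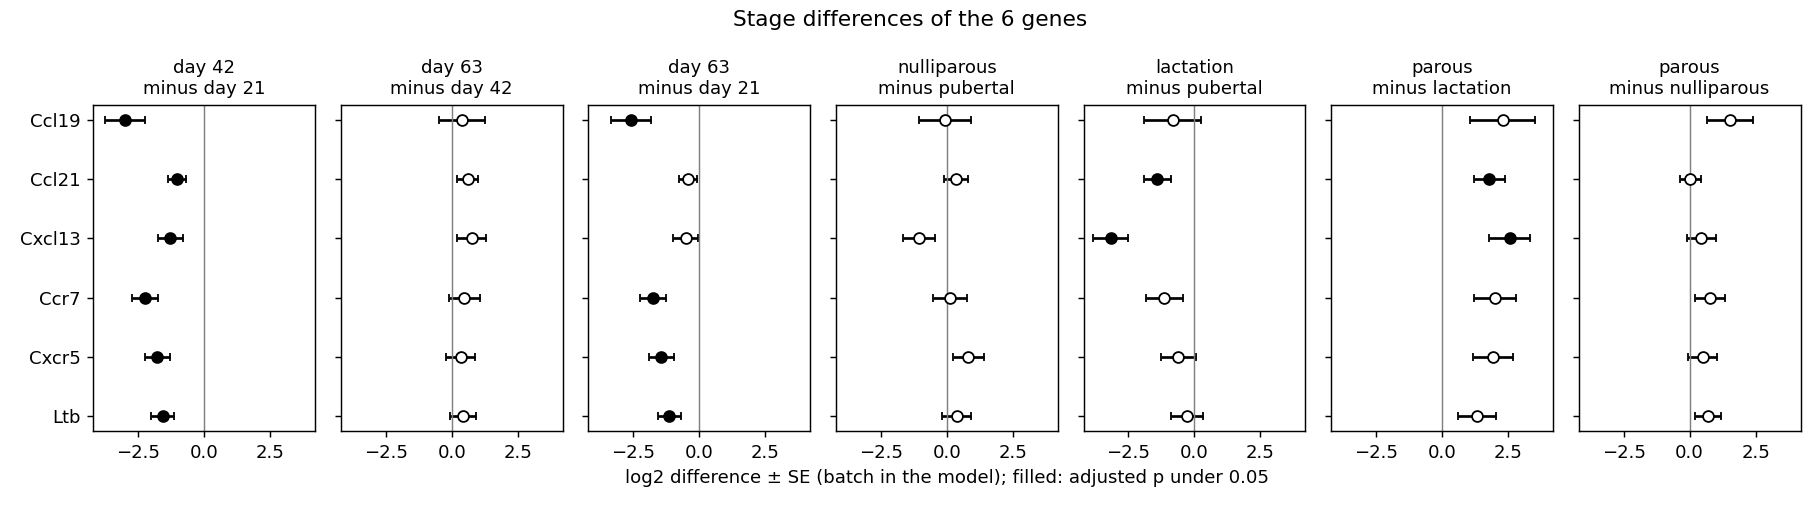
Log2 difference with its SE (x axis) for each of the 6 genes (rows) in the 7 stage comparisons (panels, later or parous stage minus the other), from limma with batch in the model; filled points passed an adjusted p of 0.05. All 6 genes fell at day 42, Ccl21 and Cxcl13 were the only called genes in both lactation panels, and no gene was called in 3 panels.

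Genes of lymphocytes fell at day 42 along with the 6. Of all tested genes 15.2% fell and 32.3% were called in that comparison. Of 15 T cell genes 14 fell (median -2.16), among them Cd3g (-3.44 ± 0.67, SE) and Cd3d (-2.46 ± 0.53), subunits of the T cell receptor complex. All 12 B cell genes fell (median -1.53), among them Ms4a1, the gene for CD20 (-2.50 ± 0.74), and Spib, a B cell transcription factor (-1.90 ± 0.55). Of 15 genes of lymphocyte homing and exit 12 fell and 1 rose (median -1.08). The exit receptor S1pr1 fell by 1.19 ± 0.18 and the early activation gene Cd69 fell by 2.23 ± 0.44, and S1pr2 rose by 0.40 ± 0.09. Of 10 genes of lymph node stroma and high endothelial venules 6 fell (median -0.56), including St3gal6, a sialyltransferase (-1.47 ± 0.14), and Il7, a survival factor for lymphocytes (-1.36 ± 0.30). Of 20 genes of the lymphotoxin and TNF pathway 9 fell and 2 rose: the receptor gene Tnfrsf14 fell by 2.45 ± 0.60, and Tnfrsf11a, the receptor for RANK ligand, rose by 0.55 ± 0.13. Ltbr rose by 0.31 ± 0.10 (adjusted p = 0.0151) while Ltb fell.

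Other parts of the chemokine system gave these counts, to be read against the 15.2% of all tested genes that fell and the 32.3% called. Among 13 further chemokine receptors 8 fell (median -0.59), including Ccr4 (-1.07 ± 0.25), a receptor of T cells, and Cxcr4 (-0.78 ± 0.23), the receptor for CXCL12. Among 21 other CC and CXC ligands 4 fell and 3 rose (median -0.02), a share near that of all tested genes. Ccl22, a dendritic cell product, fell by 2.37 ± 0.49, whereas Ccl6 rose by 1.26 ± 0.18 and Cxcl16 by 0.47 ± 0.09. Cxcl12 differed by -0.11 ± 0.11 (adjusted p = 0.447). Of 8 further genes of lymphatic endothelium 1 fell (Nr2f2, -0.33 ± 0.09), and the vessel markers Lyve1 (-0.17, adjusted p = 0.44) and Mmrn1 (0.15, adjusted p = 0.594) were not called. In the same comparison all 17 luminal genes rose (median 1.53) and 11 of 12 white adipocyte genes fell (median -0.66). What part these shifts have in the fall of the 6 genes was not tested.

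Between day 63 and day 42 glands limma called 0 of the 6 genes, and 0 had an unadjusted p under 0.05, in a comparison that called 1.22% of all tested genes. The 6 differences were all positive, from 0.34 ± 0.54 (SE) for Cxcr5 to 0.76 ± 0.54 for Cxcl13, with adjusted p between 0.529 and 0.881. Their 95% intervals were wide, reaching from -1.42 to 2.18 for Ccl19. Day 63 compared with day 21 had 4 genes that fell, against 18.8% of all tested genes that fell and 37.9% called in either direction. Ccl19 fell by 2.60 ± 0.76 (adjusted p = 0.00778), Ccr7 by 1.74 ± 0.50 (adjusted p = 0.0065), Cxcr5 by 1.43 ± 0.47 (adjusted p = 0.016) and Ltb by 1.14 ± 0.43 (adjusted p = 0.037). Ccl21 (-0.43 ± 0.35, adjusted p = 0.36) and Cxcl13 (-0.52 ± 0.47, adjusted p = 0.403) were not called. With array weights both fell (Ccl21 by 0.79, adjusted p = 0.00269, and Cxcl13 by 0.85, adjusted p = 0.0239), which makes 6 of 6. That setting called 6162 of 10986 tested genes in either direction. Without the 5 arrays high in muscle genes 3 of the 6 fell, Ltb no longer being called (adjusted p = 0.0696). The same 4 genes were called within batch 1 (adjusted p between 0.00946 and 0.029) and none within batch 2, where the differences ran from -0.16 for Ccl21 to -1.11 for Ccr7. The fits of batch 1 and batch 2 called 3465 and 1181 of 10986 tested genes. The Ltb call was lost without any 1 of day 21 arrays 1, 2, 3, 6 and 9 or day 63 arrays 1, 2, 3 and 5 (adjusted p between 0.0512 and 0.101), and Ccl21 passed at -0.69 (adjusted p = 0.0322) without day 21 array 8. T cell genes fell at 14 of 15 members (median -1.60) and B cell genes at 4 of 12 (median -1.18) in this comparison. All 12 B cell genes had an unadjusted p under 0.05. The day 42 and day 63 comparisons share the day 21 arrays.

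Lactating glands, compared with pubertal glands, had lower Cxcl13 and Ccl21. Cxcl13 fell by 3.17 ± 0.66 (SE; 8.97-fold, adjusted p = 0.00039) and Ccl21 by 1.40 ± 0.50 (2.64-fold, adjusted p = 0.0271), and for both genes all 3 lactating arrays lay below all 5 pubertal arrays. These are 2 of 6 genes lower, against 16.9% of all tested genes lower and 40.7% called. Arrays of the 2 groups did not overlap for Ccl19 (6.25 to 6.60 in lactation, 6.61 to 8.21 at day 63), Ccr7 (7.01 to 7.15 in lactation, 7.47 to 9.06 at day 63) or Cxcr5 (5.47 to 6.49 in lactation, 6.67 to 7.24 at day 63) either, as for 35.9% of all tested genes. Those 3 were not called, with differences of -0.83 ± 1.08, -1.14 ± 0.71 and -0.62 ± 0.66, in a fit whose spread comes from all stages. Ltb overlapped and differed by -0.27 ± 0.61. Within batch 2, where both groups have arrays (3 against 2), the fit of that batch called Cxcl13 (-3.15, adjusted p = 0.00155), Ccl21 (-1.54, adjusted p = 0.0351) and also Ccl19 (-1.80, adjusted p = 0.0445). That fit called 2383 of 10986 tested genes. A fit of only these 2 groups called all 6, and 3166 of 10986 tested genes. The Ccl21 call was lost without pubertal array 4 or 5 or lactation array 3 (adjusted p between 0.0549 and 0.0997) and without the 5 arrays high in muscle genes (adjusted p = 0.14).

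In the same comparison limma called 0 of 15 T cell genes and 0 of 12 B cell genes (medians -0.22 and -0.69), and none of either list had an unadjusted p under 0.05. The smallest adjusted p was 0.116, for the B cell gene Cr2. The list counts here are to be read against the 16.9% of all tested genes that were lower and the 40.7% called. Of the genes of lymphatic endothelium apart from Ccl21 itself, 6 of 8 fell and 1 rose (median -0.59). Reln fell by 1.58 ± 0.23 (SE), the hyaluronan receptor gene Lyve1 by 1.41 ± 0.22 and Mmrn1 by 1.35 ± 0.27, and Prox1, a transcription factor of lymphatic vessels that other cells also express, rose by 1.06 ± 0.22. Of 10 stromal and high endothelial venule genes 3 fell, namely Enpp2 (-1.93 ± 0.17), which makes lysophosphatidic acid, the adhesion gene Vcam1 (-1.33 ± 0.39) and Pdpn (-0.61 ± 0.24). Cxcl12, a stromal chemokine, fell by 0.82 ± 0.15 (adjusted p = 9.07e-05), and 10 of 12 white adipocyte genes fell (median -0.85), while 8 of 17 luminal genes rose and 1 fell. What part these shifts have in the values of Ccl21 and Cxcl13 was not tested.

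Parous glands, compared with lactating glands, had higher Cxcl13 (2.56 ± 0.77, SE; 5.88-fold, adjusted p = 0.0112) and higher Ccl21 (1.79 ± 0.58; 3.46-fold, adjusted p = 0.0187). Of all tested genes 12.1% rose and 32.9% were called. Ccr7 (2.01 ± 0.81, adjusted p = 0.0576), Cxcr5 (1.93 ± 0.76, adjusted p = 0.0525), Ccl19 (2.30 ± 1.24, adjusted p = 0.155) and Ltb (1.33 ± 0.71, adjusted p = 0.148) were positive and not called. Arrays did not overlap for Ccl21, Cxcl13 and Ccr7, against 27.8% of all tested genes. No batch holds both groups, so no value within a batch could be had, and the batch term rests on the other stages. Without lactation array 3, which had the lowest Cxcl13 and Ccl21 and a skeletal muscle mean of 9.71, neither gene was called (Cxcl13 1.90, adjusted p = 0.0761; Ccl21 1.61, adjusted p = 0.0614), and without the 5 arrays high in muscle genes 0 of the 6 were called (adjusted p = 0.104 and 0.105 for these 2). Without parous array 2 or 5, Ccr7 and Cxcr5 were called as well (adjusted p between 0.0108 and 0.0389). Of the lists, 4 of 12 B cell genes rose, including Cr2 (4.10 ± 1.35), and 2 of 15 T cell genes, Tcf7 (2.62 ± 0.80) and Cd3g (2.91 ± 1.10). In lymphatic endothelium 4 of 8 rose and 1 fell, with Lyve1 up by 1.43 ± 0.26. This comparison shares the lactation arrays with the one before.

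Between nulliparous and pubertal glands limma called 0 of the 6 genes, and 0 had an unadjusted p under 0.05, while 4.27% of all tested genes were called. The differences lay between -1.06 ± 0.60 (SE; Cxcl13, adjusted p = 0.378) and 0.82 ± 0.60 (Cxcr5, adjusted p = 0.534). Ccl21 was the only 1 of the 6 whose arrays did not overlap, at 11.63 to 12.17 in nulliparous and 11.10 to 11.54 in pubertal glands, as for 7% of all tested genes, and with batch in the model it differed by 0.36 ± 0.46 (adjusted p = 0.764). Within batch 1, the only batch with both groups, it differed by 0.51 (adjusted p = 0.711). Between parous and nulliparous glands of the same age limma likewise called 0 of the 6, and 0 had an unadjusted p under 0.05. The log2 differences were 1.53 ± 0.87 for Ccl19, 0.76 ± 0.57 for Ccr7, 0.68 ± 0.50 for Ltb, 0.49 ± 0.54 for Cxcr5, 0.45 ± 0.54 for Cxcl13 and 0.03 ± 0.41 for Ccl21, with adjusted p between 0.845 and 0.992. This comparison called 2 of 10986 genes (0.0182%). The 95% interval for Ccl19, -0.27 to 3.33, leaves room for a large difference. In both groups a few arrays carried most of the signal: 3 of 5 parous arrays (1, 3 and 4) and 1 of 5 nulliparous arrays (3) had Ccl19 above 8. Without parous array 4 the Ccl19 difference was 0.70, and without nulliparous array 3 it was 2.24. It was 2.43 within batch 3 and 0.93 within batch 1.

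Across single arrays, Ccl19, Ccr7, Cxcr5 and Ltb moved together. After removal of the batch terms, the Pearson correlation over the 33 arrays was 0.91 to 0.96 for the 6 pairs among these 4 genes, 0.76 to 0.83 for their 4 pairs with Ccl21, and 0.57 to 0.70 for the 5 pairs with Cxcl13. These correlations describe 33 arrays that share stages and 1 normalization. Among the 10 day 21 arrays alone all 15 pairs correlated at 0.76 to 0.98, and among the 6 of batch 1 at 0.956 to 0.998. Day 21 array 8 weighs heavily in these values, with Ccl19 at 6.95 against 10.29 to 11.52 in the other batch 1 arrays of that stage. By rank (Spearman) the 15 pairs correlated at 0.66 to 0.99 among the 10 arrays, lowest for Cxcl13 with Ccr7. The looser tie of Cxcl13 shows in single arrays. Day 63 array 1 had the highest Cxcl13 of all 33 arrays, at 13.07, with Ccl19 at 6.65, and day 42 array 1 had Cxcl13 at 12.46 with Ccl19 at 6.53. Parous array 4, with the highest Ccl19 (11.60) and Ltb (11.14) of all arrays, had an intermediate Cxcl13 of 11.76. Day 21 array 9, of batch 2, had the highest Ccr7 of all 33 arrays, at 11.07, with Ccl19 at 10.02.

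**Figure D3:**
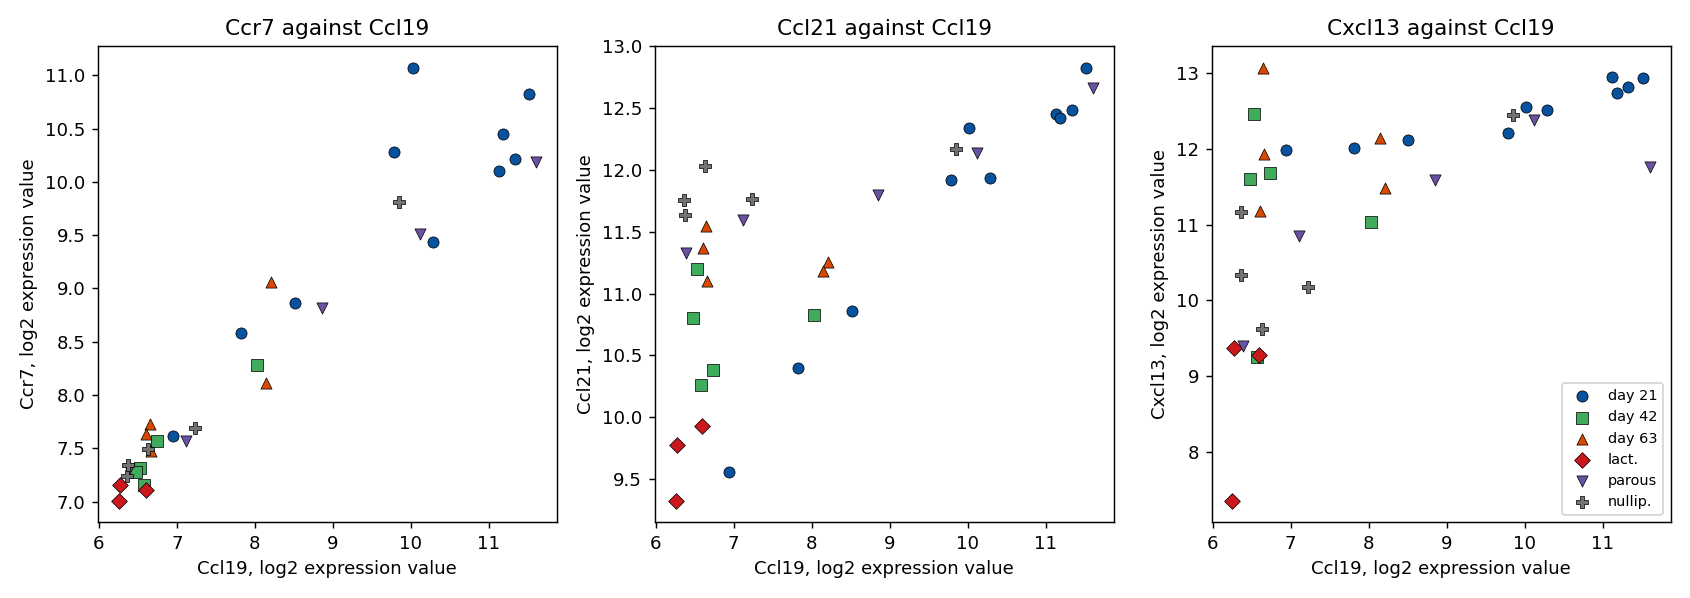
Log2 values of Ccr7, Ccl21 and Cxcl13 (y axes) against Ccl19 (x axis) in the 33 arrays, marked by stage. Ccr7 followed Ccl19 over the whole range, whereas Ccl21 and Cxcl13 spread widely among the arrays with Ccl19 under 7, with the lowest value of each in lactation array 3.

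The arrays high in Ccl19 were also high in lymphocyte genes. The mean over 12 B cell genes was 8.29, 9.42 and 9.46 in parous arrays 1, 3 and 4, against 6.52 and 6.80 in parous arrays 2 and 5, and nulliparous array 3 stood at 9.74 where the 4 remaining nulliparous arrays stood at 6.57 to 6.79. Over 15 T cell genes the means were 8.74, 9.54 and 10.28 in parous arrays 1, 3 and 4 and 9.62 in nulliparous array 3. At day 21 the B cell mean ran from 6.52 in array 8, the array with the lowest Ccl19, Ccl21, Cxcl13, Ccr7, Cxcr5 and Ltb of that stage, to 9.66 in array 1. The luminal epithelium mean of array 8 was the highest of that stage, at 9.31. Over the 33 arrays, without removal of batch, the B cell mean correlated with Ccl19 at 0.95 and with Ccr7 at 0.96, and with Cxcl13 at 0.62 and Ccl21 at 0.68. How much lymph node tissue a sampled gland held was not measured, and its part in these values was not tested.

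**Figure D4:**
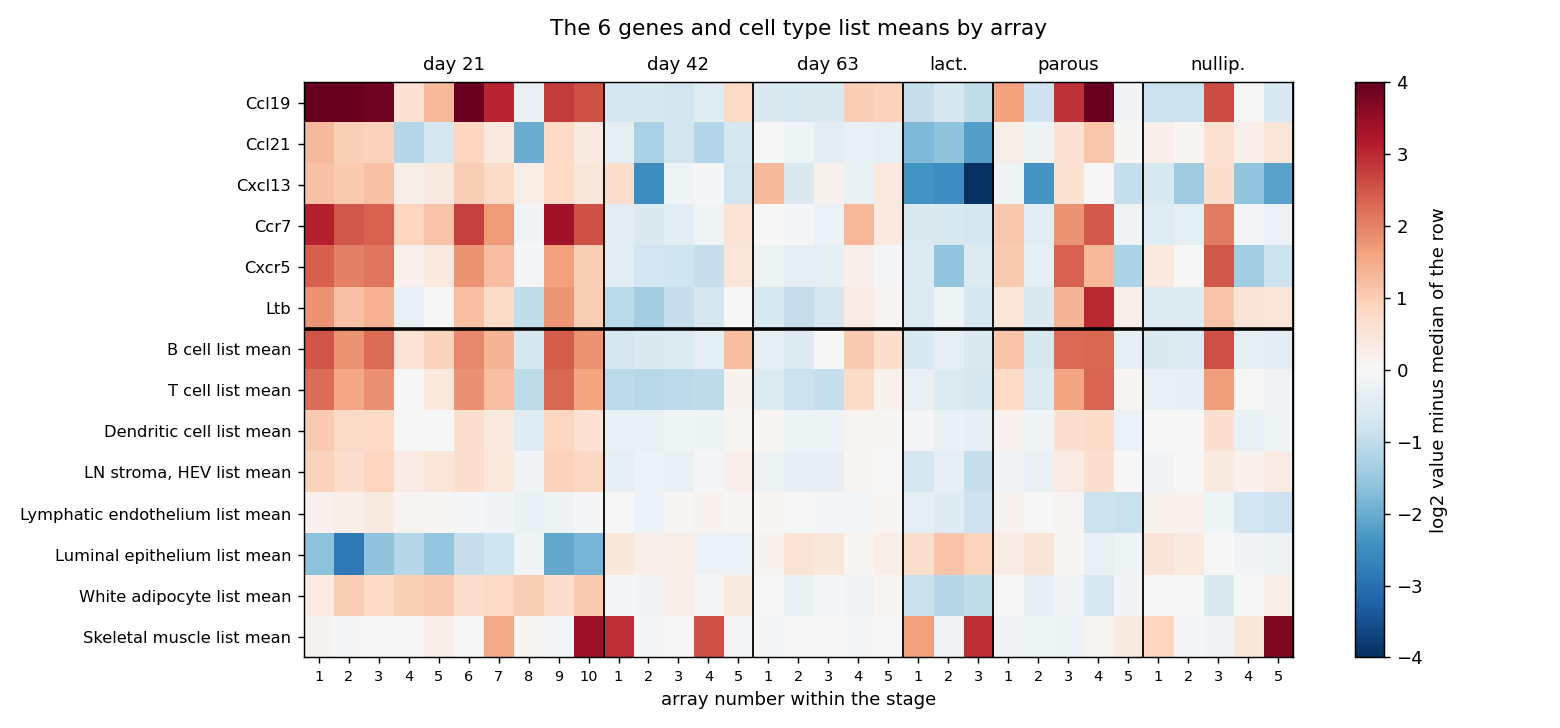
Log2 value minus the median of the row (colour, with values beyond 4 shown as 4) for the 6 genes and for 8 cell type list means (rows) in the 33 arrays (columns, by stage). The columns in which Ccl19, Ccr7, Cxcr5 and Ltb are high, most of day 21, parous arrays 1, 3 and 4 and nulliparous array 3, are also high in the B and T cell rows.

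Batch left uneven marks on the 6 genes. The difference of batch 2 from batch 1 was called for none of them, against 56.6% of all tested genes. The differences lay between -0.35 for Ccl21 and 0.38 for Ccr7 (SE 0.30 to 0.63, adjusted p between 0.326 and 0.921). Within stages it still mattered which arrays are compared: at day 63 the 2 arrays of batch 2 had Ccl19 at 8.21 and 8.15, above the 6.61 to 6.66 of the 3 arrays of batch 1, whereas at day 21 the batch 2 mean was 9.04 and the batch 1 mean 10.40. The B cell means of those 2 day 63 arrays were 8.18 and 7.81, against 6.64 to 7.15 in batch 1. In the adult stages both batches held arrays high and low in Ccl19 among parous glands (7.11 and 11.60 in batch 3; 6.39 to 10.12 in batch 1), while both batch 3 nulliparous arrays were low (7.23 and 6.64). Batch 3 minus batch 1 was called for 77.4% of all tested genes and, of the 6, for Cxcr5. The terms of the other 5 genes ran from -0.61 for Cxcl13 to 0.83 for Ltb (SE 0.42 to 0.89) and were not called (adjusted p between 0.138 and 0.879).

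The genes most like each of the 6 were ranked by Pearson correlation over the 33 arrays after removal of the batch terms, given here as a description. Those closest to Ccl19 were Capn13 (0.976), Tnfrsf14, Ripor2, Cd5 and Myo1g. For Ccr7 they were Prkcq (0.986), a kinase of T cell receptor signalling, Ripor2, Dgka, Lef1, a transcription factor of T cell development, and Il2rg, the common receptor chain of several interleukins. For Ltb they were Cd247 (0.984), a T cell receptor subunit, LOC691076, Tbc1d10c, Dock2 and Cd3e, and for Cxcr5 Slamf6 (0.968), Ms4a6c, Cd40lg, Cd3d and Trat1. Ccl21 was most like Il7 (0.924), Cmahp, Dok2, Fmnl1 and Dnase1l3. Cxcl13 had the weakest best match, Irak3 (0.900), a brake on Toll-like receptor signalling, followed by Lrrfip1, Celf2, the complement gene C7 (0.876) and Tpt1. With stage removed as well, the correlations for Cxcl13 were 0.68 to 0.78, and those of the other 5 genes with their 5 nearest were 0.87 to 0.98. The median over all tested genes was between -0.08 and -0.03 for the 6 genes.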

How the data were processed

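Per the submitters' processing notes, the authors processed 33 Affymetrix whole-transcript arrays with Expression Console and RMA; no version and no genome build was named there. The values as deposited are on the log2 scale, from 2.405 to 14.228 over 36685 probe sets, after background correction, normalization between arrays and summary over probes, the steps that RMA consists of. Low signals are compressed by RMA, so folds of dim genes can be understated. No detection calls were used, and the number of arrays limits the precision.

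Probe sets with exactly 1 symbol in the platform annotation (18511) were used, and of several the one with the highest mean. Stage, batch and kit came from the labels. One limma 3.58.1 fit (R 4.3.3) with stage and batch terms and an intensity trend covered 33 arrays, leaving 25 residual degrees of freedom. Each comparison used its two-sided moderated test with Benjamini-Hochberg adjustment over 10986 genes, and "rose", "fell" and "called" mean an adjusted p under 0.05. The pooled spread of all stages enters every SE. The 6 genes, the 15 gene lists written from general knowledge (191 tested genes, the 6 left out) and the alternatives were chosen with earlier results of these data known. Named genes were the 6, of each list described up to 4 members of smallest adjusted p, a panel of the same pathway (among them Cxcl12, Cxcr4, Lta, Ltbr and Cr2) and the 5 genes most like each of the 6. Some panel genes are not reported here. The procedure was also run on simulated data with independent noise for each gene. That setting lacks the shared movement of genes in single arrays, so it cannot speak for that feature of these data. No arrays were duplicates (highest correlation between a pair 0.9928). Nothing beyond the labels shows that arrays are separate animals, and p-values measure the spread between arrays. Alternatives covered the batch term, the filter, scaling, array weights, the threshold, fits of single batches or of only the groups compared, and each array left out. Figures were drawn with matplotlib 3.10.9.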

Additional observations from a re-analysis of the deposited data

Results flagged for a closer look

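In 3 of 30 groups of arrays (6 genes in the 5 stages with at least 5 arrays) the highest array stood apart from the others by Dixon's criterion, where chance flags about 1 in 20. Ccl19 was 8.03 in day 42 array 5, against 6.48 to 6.74 in the other 4 day 42 arrays. Nulliparous array 3 stood apart for Ccl19, at 9.85 against 6.36 to 7.23 in the other 4, and for Ccr7, at 9.81 against 7.24 to 7.69. The B cell list mean was 8.38 in day 42 array 5 (6.49 to 6.75 in the other 4) and 9.74 in nulliparous array 3 (6.57 to 6.79 in the other 4). The part of lymphocyte genes in these values was not tested.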

How the results depend on the processing

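The count of called genes among the 6 stayed at 0 under every alternative run for day 63 minus day 42, nulliparous minus pubertal and parous minus nulliparous, and for the F test it was 4 to 6. For day 42 minus day 21 (6 called) it was 0 within batch 2, 3 without the 5 arrays high in muscle genes, 4 with no batch term and at an adjusted p under 0.01, 5 in a fit of only the groups compared, and 4 to 6 with 1 array left out. For day 63 minus day 21 (4 called) it was 2 with no batch term, 0 within batch 2, 2 at an adjusted p under 0.01, 3 without the muscle-high arrays and with no filter on dim genes, 6 with array weights, and 3 to 5 with 1 array left out. For lactation minus pubertal (2 called) it was 6 in a fit of only the groups compared, 1 without the muscle-high arrays, 1 at an adjusted p under 0.01, and 1 to 2 with 1 array left out (1 without pubertal array 4 or 5 or lactation array 3). For parous minus lactation (2 called) it was 4 with batch as a random block, 5 with array weights, 1 in a fit of only the groups compared, 0 without the muscle-high arrays, 0 at an adjusted p under 0.01, and 0 to 4 with 1 array left out (0 without lactation array 3, 4 without parous array 2 or 5). For parous minus lactation the fit of only the groups compared carried no batch term, because no batch holds both groups. Single-batch and left-out fits hold fewer arrays. For day 42 minus day 21 the differences of all 6 genes were also smaller within batch 2 than within batch 1. For Ccl19 they were -1.65 ± 0.54 (SE) and -3.87 ± 0.99. The cause of the changed counts was not tested. Over the 6 genes and their comparisons, 1239 alternative values kept direction and call, 51 lost the call, 18 gained it and 24 changed sign. Those that changed sign were all uncalled. In nulliparous minus pubertal, Ccl19 (-0.06) became 0.0337 with no batch term, 0.24 without batch 3, 0.89 within batch 1 and also in a fit of only the groups compared, 0.0468 without the muscle-high arrays, and -1.01 to 0.25 with 1 array left out. Ccr7 (0.11) became -0.0862 with no batch term, -0.0615 with array weights and -0.57 to 0.37 with 1 array left out, and Ltb (0.37) was -0.0767 to 0.525 with 1 array left out. In parous minus nulliparous, Ccl21 (0.03) became -0.10 and Cxcl13 (0.45) -0.19 without batch 3 and within batch 1. With 1 array left out Ccl21 was -0.16 to 0.17 and Cxcr5 (0.49) -0.0115 to 0.970. The number of all genes called ran from 612 to 5004 for day 42 minus day 21 (3552), 0 to 1653 for day 63 minus day 42 (134), 715 to 6162 for day 63 minus day 21 (4169), 69 to 1993 for nulliparous minus pubertal (469), 897 to 5263 for lactation minus pubertal (4472), 790 to 3996 for parous minus lactation (3610) and 0 to 26 for parous minus nulliparous (2). Batch 1 alone holds no lactation arrays and batch 2 alone no parous or nulliparous arrays, so those fits were not possible. No paired analysis was possible because the labels give no replicate number that groups share. Many values of Ccl19, Ccr7, Cxcr5 and Ltb lie under the floor of 7.645, where ratios are least exact.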

Other observations

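In the comparison of day 42 with day 21, in which all 6 genes fell, other immune cell lists gave mixed counts, several of them near the 15.2% of all tested genes that fell and the 32.3% called. Of 10 dendritic cell genes 4 fell (median -0.51), among them Irf8, a transcription factor of these cells, by 1.27 ± 0.34 (SE), and Ccl17, a ligand of CCR4, by 1.16 ± 0.39. Over the 33 arrays, which share stages and batches and without removal of batch, the dendritic cell mean correlated with Ccr7 at 0.94, with Ccl19 at 0.93 and with Cxcl13 at 0.61. Of 8 follicular dendritic and germinal centre genes 2 fell (Cr2 and Fcer2, both also in the B cell list) and 2 rose (Mfge8 and S1pr2). Of 8 plasma cell genes 2 rose (Sdc1 and Xbp1, which epithelium also expresses) and 1 fell (Pou2af1, also in the B cell list). The plasma cell mean was 9.01 to 9.35 in lactating glands, where Cxcl13 and Ccl21 were low, against 8.64 to 9.08 in pubertal glands. Of 11 macrophage genes 1 rose (Adgre1, by 0.82 ± 0.17) and 2 fell, among them Siglec1, a marker of lymph node sinus macrophages, by 1.33 ± 0.41. Of 11 skeletal muscle genes limma called 0, and 1, Mybpc2, had an unadjusted p under 0.05 (0.84 ± 0.39, adjusted p = 0.0999).

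Ccl19 ran from 6.95 to 11.52 within the 6 day 21 arrays of batch 1, which share stage, batch and kit. It ran from 6.36 to 9.85 within the 3 nulliparous arrays of that batch, with array 3 at 9.85 and arrays 1 and 2 at 6.36 and 6.37.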
